A study of Mus musculus with 2 samples.

Results

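Lymphatic endothelial cells line the vessels that drain fluid, dietary lipid and migrating leukocytes from the gut wall. In this single-cell RNA data set from inflamed mouse mid-colon they were 72 of the 14848 cell barcodes kept. The study gives 1 group of 2 libraries, repeat 1 and repeat 2, from 7-week-old specific-pathogen-free mice that had received 3% dextran sulfate sodium (DSS) for 6 days. DSS, given in drinking water, damages the colonic epithelium and causes colitis. No strain, sex or number of pooled animals is stated, and no untreated library was analysed here, so nothing below measures an effect of DSS. Whether each repeat is a different animal is not stated, so every p-value here reflects the variation of these 2 libraries alone, which can be purely technical.

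A barcode entered the data set with 200 or more genes and a mitochondrial share below 20% of its unique molecular identifiers (UMIs, 1 per captured transcript). The members were chosen by their own UMIs of marker genes. A barcode was called lymphatic endothelial when it held at least 1 UMI of the endothelial genes Cdh5 and Egfl7 together, and either at least 2 UMIs of Prox1 and Mmrn1 together or at least 4 UMIs of Ccl21a. It also had at most 1 UMI of Ptprc, at most 3 of Epcam and under 10 of Col1a1, Col1a2 and Col3a1 together, which keeps out leukocytes, epithelium and fibroblasts. The rule found 23 of 5721 barcodes in library 1 (0.402%, exact 95% binomial interval 0.255 to 0.603) and 49 of 9127 in library 2 (0.537%, 0.397 to 0.709), a mean of 0.469% ± 0.0953 (SD, n = 2). The 2 intervals overlapped, and they cover counting error only.

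Lymphatic endothelium takes its identity from the transcription factor PROX1, which works with SOX18 and NR2F2, and grows in response to VEGF-C through its receptor VEGFR-3, the product of Flt4. Blind-ended capillaries take up fluid and cells, hold the hyaluronan receptor LYVE1 and secrete CCL21, which draws CCR7-bearing dendritic cells and T cells into the vessel. Collecting vessels have less LYVE1, tighter junctions and valves that need FOXC2, GATA2 and integrin alpha-9. In the gut, lymphatic vessels also carry absorbed lipid from the small intestine and are a source of RSPO3 and reelin near the crypts.

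Both comparisons below set raw UMIs summed per library over the lymphatic cells against sums over other gated cells of the same libraries. The first comparison partner was blood vessel endothelium, 27 and 80 barcodes with at least 2 UMIs of Cdh5 and Egfl7 and at least 2 of Plvap and Flt1, with at most 1 of Prox1 and Mmrn1 and at most 3 of Ccl21a. The second was a gate of collagen-rich stromal cells, 72 and 176 barcodes with at least 10 collagen UMIs and at least 2 of Dcn and Pdgfra, and none of Cdh5 and Egfl7. That gate was set for fibroblasts but it also held pericyte and smooth muscle genes such as Rgs5, at 708 and 478 CPM (UMIs scaled to a class total of 1000000). All levels are in CPM of the class in a library, with library 1 first. Differences are log2 values ± SE from an edgeR quasi-likelihood fit, which rescales the sums by TMM factors, so a difference need not equal the ratio of the 2 CPM.

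The lymphatic cells held 135101 UMIs in library 1 and 311862 in library 2, with medians of 4253 and 4785 UMIs per cell. Blood vessel endothelial cells had medians of 7366 and 7890, so a gene at a low level could go unseen more easily in a lymphatic cell. The median mitochondrial share was 4.50% and 2.27% in lymphatic cells. The libraries shared 18 barcodes and none of them was a lymphatic cell. Scrublet, a doublet caller, marked 0 and 5 lymphatic cells. A chi-square test of the lymphatic sums over 6318 genes gave 2.24 per degree of freedom, so the sums differed by more than counting noise. The test takes each UMI as independent, so differences between single cells also raise this value. Lymphatic cells were 46.0% of both endothelial classes in library 1 (31.8 to 60.7) and 38.0% in library 2 (29.6 to 46.9), again with overlapping intervals.

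RNA of other cells was present at low level. Over 15 leukocyte markers the summed level was 1007 and 1267 CPM in lymphatic cells, against 768 and 999 in blood vessel endothelium. Cd79a and Ms4a1 of B cells were at 0 UMIs. S100a8, a neutrophil gene, was found in 67 of the 72 cells but at 526 and 449 CPM, beside 438 and 438 in blood vessel endothelium and 356 and 492 in T cells. The 11 epithelial markers summed to 1022 and 1061 CPM, and 8 mural markers to 7.40 and 12.8 CPM with Rgs5, Notch3, Cspg4 and Pdgfrb at 0. Of 9 leukocyte and 11 epithelial markers tested against blood vessel endothelium, 0 passed in edgeR and 0 in DESeq2, with 0 and 3 at an unadjusted p under 0.05 in edgeR and 1 and 3 in DESeq2. Other settings called a few as higher. DESeq2 size factors in edgeR called 2 epithelial markers, a fit of only the 2 classes 1 leukocyte marker, and no filter on low counts 2 leukocyte markers. Of the 8 fibroblast markers, Dcn and Fstl1 were tested and both were higher in lymphatic cells, Dcn at 414 and 151 CPM against 4.52 and 8.22, from 14 cells of which 1 held 31 UMIs (5.32 ± 1.40, adjusted p = 0.040). Neither passed without the replicate block, or over only the cells with at least 4 Ccl21a UMIs, and the part of such RNA in the results was not tested. Pdgfra, Col6a1 and Col6a3 were at 0 UMIs in lymphatic cells.

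A single library 2 cell stood apart from the rest. It passed the rule with 3 Prox1 UMIs of its 19849 and had 0 of Mmrn1, Ccl21a, Lyve1, Flt4 and Reln. It held all 64 Vwf UMIs and all 34 Ackr1 UMIs of the lymphatic class, 24 of 30 Sele, 63 of 68 Ptgs2 and 58 of 61 Mgp, with 15 of 19 Flt1 UMIs. Vwf, Ackr1 and Sele are genes of venous blood endothelium, and these values went against the lymphatic label. Without this cell 690 genes were higher and 957 lower than in blood vessel endothelium, against 692 and 935 with it.

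The genes of the rule are described here without a test, since they chose the cells. Mmrn1, which encodes the secreted protein multimerin 1, stood at 4833 and 3636 CPM in lymphatic cells and at 0 and 1.37 in blood vessel endothelium. Prox1 stood at 725 and 798 CPM against 4.52 and 1.37. Ccl21a reached 9474 and 6721 CPM against 4.52 and 2.74, and outside lymphatic cells it was at 4.52 CPM or less in all 7 other classes. A lymphatic cell held a median of 20 Mmrn1 UMIs (0 to 68) and 3 Prox1 UMIs (0 to 27). All 72 met the Prox1 and Mmrn1 condition, and 55 met the Ccl21a condition as well. The margin was wide for most cells, since 54 held 10 or more UMIs of Prox1 and Mmrn1. Only 2 cells sat at exactly 2 UMIs, and 4 barcodes with Cdh5 or Egfl7 sat just outside with 1. A further 14 barcodes met the lymphatic condition without Cdh5 or Egfl7, and 12 exceeded an exclusion gene.

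Mouse Ccl21a lies on chromosome 4 with near-identical copies nearby, so its UMIs cannot all be assigned with certainty. Ccl21d, counted separately in the files, held 17 and 21 UMIs in lymphatic cells and 0 in blood vessel endothelium, and Ccl21b held 0 and 1. The transcripts of Ccl21b and Ccl21a were identical at 400 of 402 aligned bases, but their promoters aligned over only 10 of 300. The promoters of Ccl21a and Ccl21d were close to each other and are printed below. They come from RefSeq on GRCm38.p6 and run from 250 bases before to 50 bases after the annotated start, 5′ to 3′ on the gene's strand. Capitals in Ccl21a (chr4:42773942-42774241, minus strand) mark an AGGAAG match. Capitals in Ccl21d (chr4:41903363-41903662, plus strand) mark the aligned bases that differ from Ccl21a and the last base, which lay past the aligned stretch. Of 299 aligned bases, 297 were identical.
Ccl21a: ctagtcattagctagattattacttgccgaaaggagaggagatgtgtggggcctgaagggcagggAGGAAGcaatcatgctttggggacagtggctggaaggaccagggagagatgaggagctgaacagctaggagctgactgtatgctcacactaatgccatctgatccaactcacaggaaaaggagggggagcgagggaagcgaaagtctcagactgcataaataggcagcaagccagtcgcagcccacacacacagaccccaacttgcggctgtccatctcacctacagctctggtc
Ccl21d: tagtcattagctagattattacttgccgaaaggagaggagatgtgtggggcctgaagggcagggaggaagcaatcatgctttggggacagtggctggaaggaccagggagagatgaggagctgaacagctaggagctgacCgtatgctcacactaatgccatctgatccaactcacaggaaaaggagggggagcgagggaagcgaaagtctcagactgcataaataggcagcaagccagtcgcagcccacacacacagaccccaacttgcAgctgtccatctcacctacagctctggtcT

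Promoters of 15 of the 20 lymphatic genes looked up were in the RefSeq table, with 17 starts in all. They were searched on both strands for short runs of letters that factor families of lymphatic cells are known to prefer. The SOX family was searched as AACAAT and the FOX family as GTAAACA. For GATA factors the letters were AGATAA. An NR2F half-site was taken as AGGTCA, and ETS factors, which act in all endothelium, as AGGAAG. The ETS letters were in 6 of 17 windows (35.3%), beside 35.4% of all 32851 promoters. The SOX letters were in 1 (5.88%, beside 10.7%), the FOX letters in 1 (beside 3.65%), the GATA letters in 1 (beside 11.2%) and the NR2F letters in 1 (beside 16.3%). The windows with SOX, FOX or NR2F letters belonged to Mmrn1 (chr6:60944067-60944366, plus strand) and to Pdpn (chr4:143299515-143299814, minus strand), shown here with the matches in capitals. A match is a run of letters, not a measured binding site.
Mmrn1: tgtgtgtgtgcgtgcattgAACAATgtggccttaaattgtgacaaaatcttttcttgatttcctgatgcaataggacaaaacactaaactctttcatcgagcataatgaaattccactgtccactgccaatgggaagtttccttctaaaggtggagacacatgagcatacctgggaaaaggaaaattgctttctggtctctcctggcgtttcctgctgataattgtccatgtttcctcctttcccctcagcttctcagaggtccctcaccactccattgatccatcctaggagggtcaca
Pdpn: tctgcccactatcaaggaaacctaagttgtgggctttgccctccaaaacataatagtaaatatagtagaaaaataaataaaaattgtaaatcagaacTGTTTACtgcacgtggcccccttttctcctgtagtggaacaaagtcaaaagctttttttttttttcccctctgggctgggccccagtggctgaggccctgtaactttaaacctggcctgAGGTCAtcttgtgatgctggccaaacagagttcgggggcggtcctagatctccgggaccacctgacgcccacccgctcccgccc

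The label was checked on genes that the rule did not use. Of 20 lymphatic identity genes outside the rule, 18 had enough UMIs to be tested against blood vessel endothelium, and 17 were higher in lymphatic cells and 0 lower. Of all 9666 genes tested, 7.16% were higher (692 genes) and 9.67% lower (935 genes) at an adjusted p under 0.05. These shares are the background for every list count against blood vessel endothelium below. With DESeq2 size factors the counts were 825 higher and 781 lower. The list's median log2 difference was 6.38, beside -0.13 over all genes tested. The lists were chosen with these data known, and most of these genes are textbook lymphatic markers. The tested gene that did not pass was Sox18, at 59.2 and 48.1 CPM against 72.3 and 43.8. Ackr4 and Stab2 had too few UMIs, with 2 cells and 1 cell holding any. Reln, Sema3d, Pdpn, Tbx1, Fxyd6, Nts and Thy1 had 0 blood vessel UMIs and had enough for a test through lymphatic UMIs alone. Their log2 values enter the list's median but are not measured sizes.

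Lyve1, the hyaluronan receptor, was at 2850 and 3322 CPM in lymphatic cells and at 203 and 232 in blood vessel endothelium, a log2 difference of 3.76 ± 0.41 (adjusted p = 1.4e-04). It was detected in 63 of 72 lymphatic cells (87.5%) and 33.6% of blood vessel cells. After each cell was thinned to 2000 UMIs, which left out 11 and 4 shallower cells, the shares were 86.9% and 21.4%. Phagocytes, in which tissue-resident forms can express LYVE1, were at 0.209 and 5.34 CPM. Flt4, the VEGF-C receptor, was at 1377 and 1126 CPM against 108 and 67.1 (3.82 ± 0.23, adjusted p = 1.6e-11). For both genes each lymphatic library lay above both blood vessel libraries. In GENCODE M21 on GRCm38, Lyve1 spans chr7:110850607-110863239, Flt4 chr11:49609263-49652739, Reln chr5:21884454-22344702 and Prox1 chr1:190118035-190170714.

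Reln, which encodes the secreted glycoprotein reelin, stood at 1636 and 1177 CPM in lymphatic cells, with 588 UMIs in 65 cells. It had 0 UMIs in blood vessel endothelium and 0 in the stromal gate, which makes it at least 417-fold higher than in the first, with 3 counts over the class as the floor. In the other 5 classes it was at 1.46 CPM or less. Maf, a transcription factor of lymphatic and several immune cells, was at 2095 and 1587 CPM against 0 and 10.96 in blood vessel endothelium (7.68 ± 0.41, adjusted p = 2.7e-10). T cells held Maf at 396 and 419 CPM and phagocytes at 147 and 259, so Maf was shared with immune classes and Reln was not.

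Guidance genes formed much of the rest of the list. Sema3a, a class 3 semaphorin, was at 1088 and 1295 CPM against 4.52 and 63.0 (4.68 ± 0.35, adjusted p = 4.5e-08). Sema3d was at 629 and 385 CPM with 0 UMIs in blood vessel endothelium, at least 145-fold higher. Nrp2, the semaphorin and VEGF-C co-receptor, was at 777 and 494 CPM against 172 and 227 (1.44 ± 0.25, adjusted p = 2.7e-04). Ntn1, the ligand netrin 1, was at 370 and 192 CPM against 0 and 2.74. The transcription factor genes Nr2f2 (2.78 ± 0.24) and Tbx1 (0 UMIs in both partner classes) were higher as well. Pdpn, the podoplanin gene, was at 370 and 333 CPM and at 0 UMIs in blood vessel endothelium, at least 109-fold higher. The stromal gate held it at 407 and 255 CPM, so Pdpn separated lymphatic cells from blood vessels but not from stroma.

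**Figure D1:**
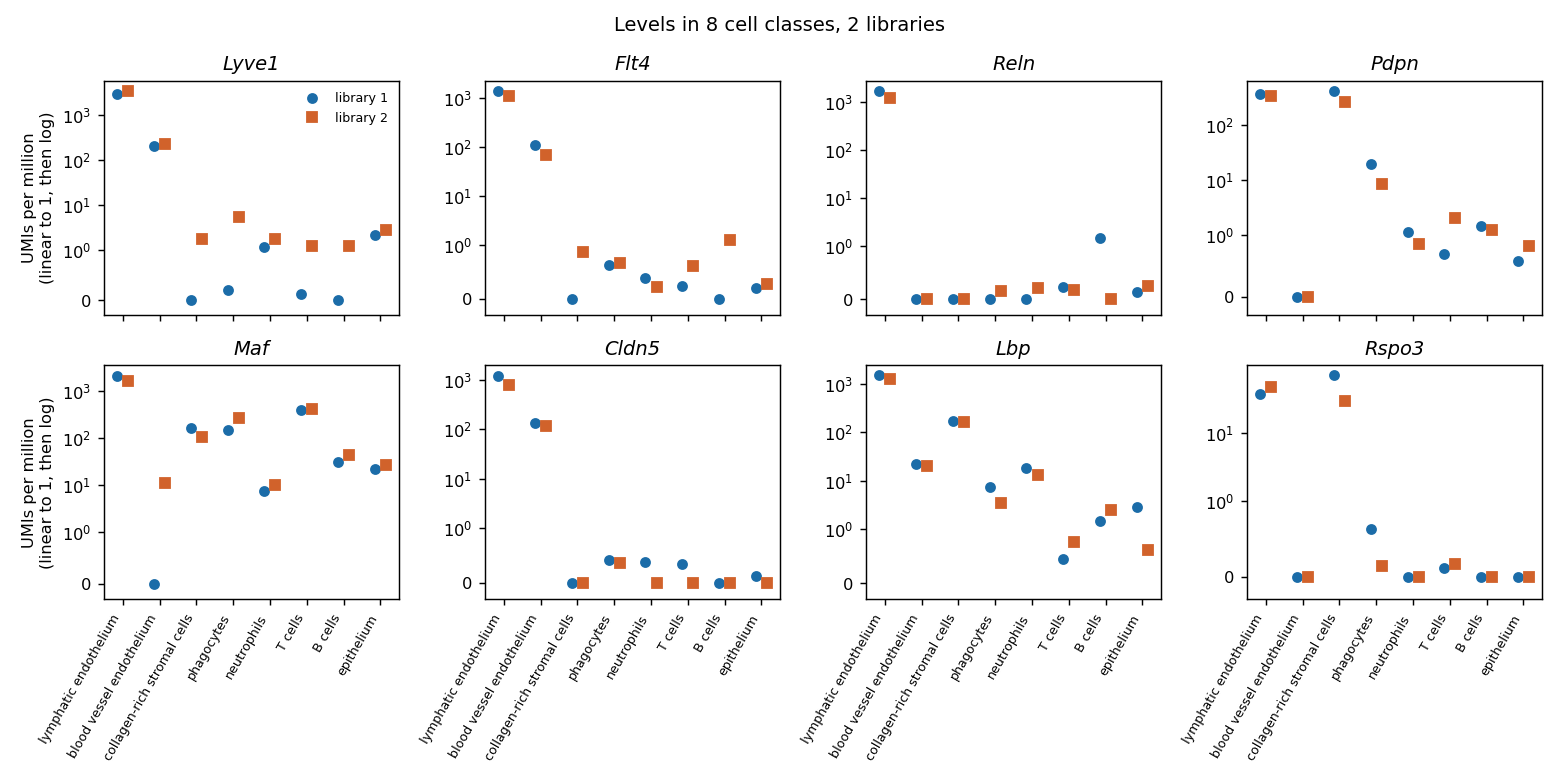
Levels of 8 genes outside the rule in 8 gated cell classes, in CPM (y axis, linear to 1 and logarithmic above), with circles for library 1 and squares for library 2. Reln and Cldn5 stood above 700 CPM in lymphatic cells and, outside both endothelial classes, at 1.46 CPM or less, while Pdpn and Rspo3 were shared with collagen-rich stromal cells.

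Against blood vessel endothelium, the 12 highest differences by the naming rule were all genes with 0 UMIs in the 107 blood vessel cells. Reln, Sema3d, Pdpn, Tbx1, Fxyd6, Nts and Thy1 were also on the list of lymphatic genes. Outside that list were Postn (periostin, a matrix protein), Adamtsl1, Serpinb6b and Plce1, with bounds from 73.8-fold (Serpinb6b) to 97.9-fold (Postn). Nts, the neurotensin gene, was in 30 cells at 252 and 183 CPM.

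The 12 lowest by the naming rule were genes with 0 lymphatic UMIs. Ranking by log2 value favours genes at 0 UMIs in either class, so it does not order the sizes of differences. The same holds for the other sets named by this rule. Ly6c1 and Col15a1, each with some lymphatic UMIs and described below, were not among the 12. Esm1 and Apln, genes of sprouting blood capillaries, were at 651 and 458 CPM and at 307 and 630 CPM in blood vessel endothelium. Their lymphatic level was at least 74.9-fold and at least 82.7-fold lower. Uchl1, Adamts7, Tnfrsf23, Chrm2, Rapgef4, Ankrd37, Sema3g, Ramp3, Lama3 and Cysltr1 were lower by bounds between 7.83-fold and 14.9-fold. Ramp3 encodes a partner of the adrenomedullin receptor, and Lama3 a laminin chain.

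**Figure D2:**
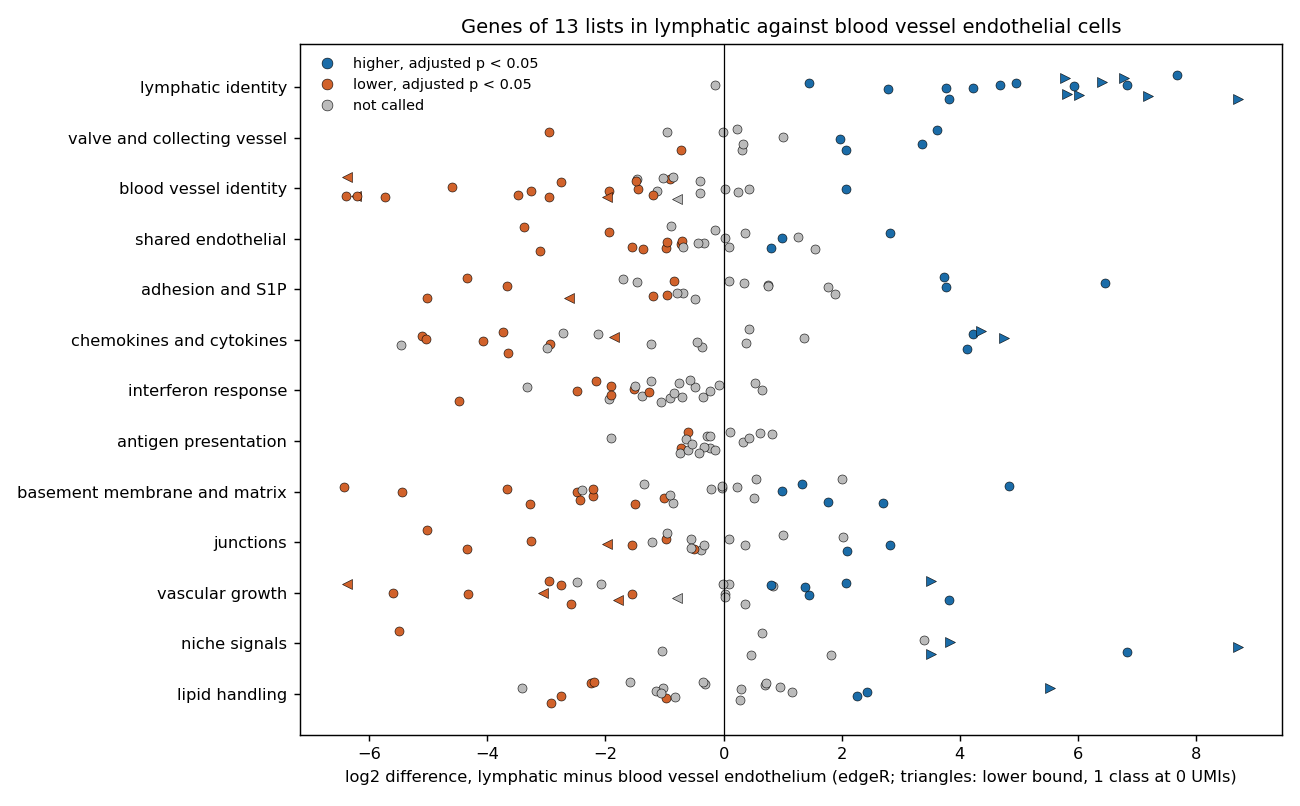
Log2 difference of each tested gene of 13 lists, lymphatic minus blood vessel endothelium (x axis); blue was higher, orange lower and grey not called at an adjusted p of 0.05, and triangles are lower bounds for genes with 0 UMIs in 1 class. Lymphatic identity genes lay to the right with 17 of 18 called, and 16 of 27 blood vessel identity genes lay to the left and were called.

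Blood vessel identity genes went the other way. Of 27 tested, 16 were lower and 1 was higher, with a median of -1.49. Cd34 was at 59.2 and 48.1 CPM against 529 and 558 (-3.49 ± 0.26, adjusted p = 8.3e-10). Ly6c1, a capillary surface gene, was at 7.40 and 25.7 CPM against 1347 and 1568 (-6.39 ± 0.31, adjusted p = 1.6e-13). The arterial transcription factor gene Sox17 had 2 lymphatic UMIs, both in 1 cell, and Notch4 had 1. The ratio of blood vessel to lymphatic CPM was 22.3 for Sox17 (95% interval 6.01 to 187). Efnb2, the ephrin-B2 gene, marks arteries and also lymphatic valves, and was the 1 gene higher, at 333 and 208 CPM against 104 and 35.6.

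Kdr, which encodes VEGFR-2, did not separate the classes. It stood at 748 and 731 CPM in lymphatic cells, between the 1035 and 451 of the blood vessel libraries (0.02 ± 0.27, adjusted p = 0.98). Emcn, often used as a venous and capillary marker, was lower but well detected, at 355 and 465 CPM against 624 and 810. Plvap, which gated the blood vessel class, was present in 36 of 72 lymphatic cells at 459 and 484 CPM. Flt1, from the same gate, was in 4 of 72.

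Genes shared by all endothelium were measured in both classes but not evenly. Of 22 tested, 3 were higher and 9 lower. Cldn5, the main endothelial tight junction claudin, was at 1199 and 792 CPM against 131 and 116 (2.82 ± 0.26, adjusted p = 6.7e-08). A Cldn5 UMI was in 93.1% of lymphatic and 23.4% of blood vessel cells, and in 73.8% and 9.71% when thinned to equal depth, so the order was the same at equal depth. Tie1 and Mmrn2 were the other higher genes. Pecam1 was lower, at 822 and 673 CPM against 1320 and 1359 (-0.97 ± 0.21). Cd93 was at 104 and 119 CPM against 1098 and 1122 (-3.38 ± 0.27). Calcrl and Ramp2, which together form the adrenomedullin receptor, were not called, with Calcrl at 785 and 584 CPM against 511 and 460.

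Among 19 tested junction genes, 2 were higher (Cldn5 and Jup) and 7 lower. Jup, the plakoglobin gene, was at 311 and 208 CPM against 72.3 and 43.8 (2.09 ± 0.25). Jam2 and Jam3, junctional adhesion genes that leukocytes use in crossing vessel walls, came from 1 lymphatic cell each. Jam2 was at 0 and 25.7 CPM against 371 and 318 (-4.35 ± 0.48, adjusted p = 2.2e-06). F11r, the third gene of that family, was at 444 and 417 CPM against 334 and 399 and was not called.

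Of 12 valve and collecting vessel genes tested, 4 were higher and 2 lower. Foxc2, the valve transcription factor gene, was at 88.8 and 96.2 CPM against 4.52 and 8.22 (3.62 ± 0.64, adjusted p = 2.5e-04), in 20 of 72 cells. Itga9 was at 200 and 253 CPM against 22.6 and 20.6 (3.36 ± 0.37). Nfatc1 and Efnb2 were the other 2. Gata2 was not called, at 88.8 and 83.4 CPM against 54.2 and 89.1. Angpt2 (-2.96 ± 0.25) and Klf2 (-0.72 ± 0.21) were lower than in blood vessels. Klf2 answers to fluid shear.

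Leukocyte scavenging and adhesion genes split. Of 21 tested, 3 were higher and 7 lower. Besides Lyve1, the scavenger receptor genes Stab1 and Mrc1 were higher, Stab1 at 918 and 648 CPM against 63.3 and 46.6 (3.73 ± 0.25, adjusted p = 1.0e-10). Mrc1 was at 244 and 170 CPM against 0 and 2.74, in 33 cells. Selp, the P-selectin gene, was lower at 163 and 420 CPM against 289 and 993. Of its 153 lymphatic UMIs, 33 were in the Vwf-bearing cell described above. In library 2, 1 blood vessel cell held 274 Selp UMIs. A Selp UMI was in 27.8% of lymphatic and 25.2% of blood vessel cells, and in 16.4% and 22.3% when thinned to 2000 UMIs. Madcam1, the addressin of gut venules, had 0 lymphatic UMIs, while its 39 blood vessel UMIs were all in library 2. Icam1 was at 192 and 321 CPM against 163 and 495 and was not called. S1pr1 was lower (-0.96 ± 0.19), and Spns2, which exports sphingosine 1-phosphate from lymphatic cells, was at 155 and 160 CPM against 118 and 72.6 and was not called.

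Several chemokine genes of inflammation were lower in lymphatic than in blood vessel endothelium. Of 21 chemokine and cytokine genes tested, 4 were higher, 7 lower and 10 not called, with a median of -2.13. Cxcl2, a neutrophil attractant, was at 44.4 and 73.8 CPM against 1067 and 2983 (-5.10 ± 0.80, adjusted p = 0.0035). Csf3, which drives granulocyte output, was at 14.8 and 32.1 CPM against 927 and 793 (-5.04 ± 1.03, adjusted p = 0.014). The T cell attractants Cxcl9 and Cxcl10 had 0 lymphatic UMIs in library 1. Cxcl9 was at 0 and 295 CPM against 1356 and 3615 (-4.08 ± 1.07, adjusted p = 0.040), and Cxcl10 at 0 and 77.0 against 262 and 926 (-3.74 ± 0.58, adjusted p = 0.0015). Ccl2 (-2.93 ± 0.59) and Cxcl12 (-3.66 ± 0.77) were lower too, and Il15 had 0 lymphatic UMIs. Cxcl1 was at 74.0 and 196 CPM against 687 and 1461 and did not pass (adjusted p = 0.054).

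The 4 higher genes of that list were Il7, Il33, Ackr2 and Ccl7. Il7, a survival factor for lymphocytes, was at 104 and 48.1 CPM with 0 blood vessel UMIs, at least 20.6-fold higher, in 16 cells. Il33, an alarmin, was at 66.6 and 93.0 CPM with 0 blood vessel UMIs, at least 27.0-fold higher, though the stromal gate held 560 and 651. Ackr2, a decoy receptor that removes inflammatory CC chemokines, was at 170 and 228 CPM against 13.6 and 9.59 (4.22 ± 0.52, adjusted p = 2.7e-06). In 44 of 72 cells Ackr2 was detected. Ccl7 rested on 3 cells, 1 with 16 UMIs, and both Ccl7 and Il33 were lower than in the stromal gate.

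**Figure D3:**
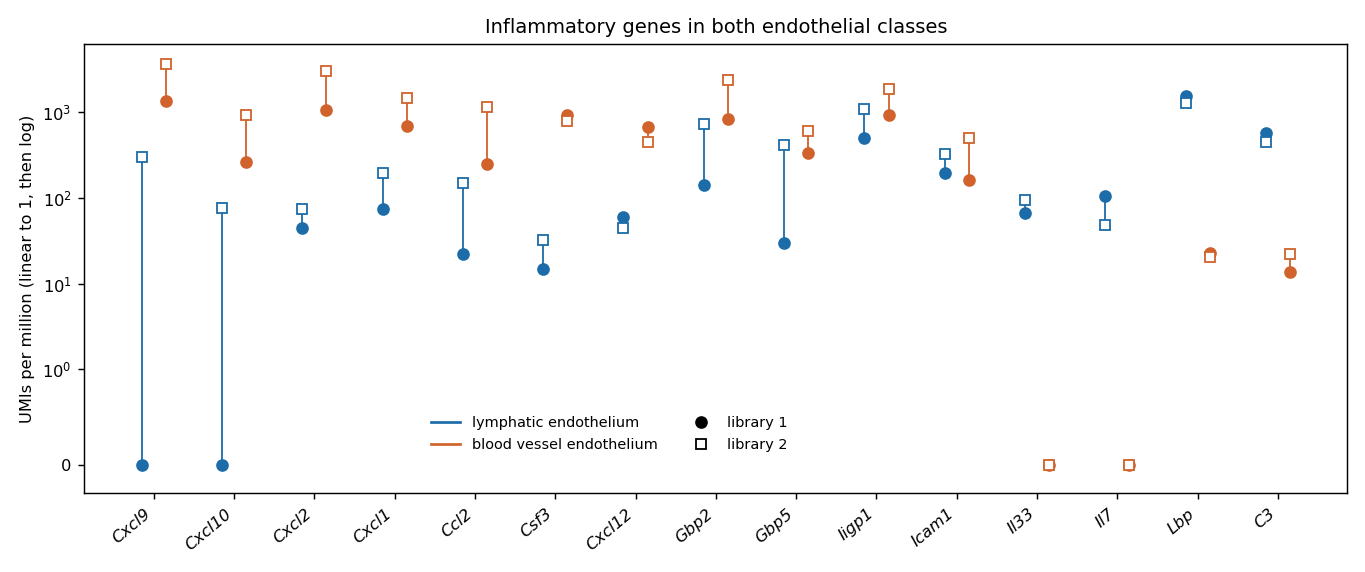
Levels of 15 inflammatory genes in CPM (y axis, linear to 1 and logarithmic above) in lymphatic (blue) and blood vessel endothelium (orange), with filled circles for library 1 and open squares for library 2. For Cxcl9, Cxcl10, Cxcl2, Ccl2 and Csf3 both lymphatic values lay below both blood vessel values, and for Il33, Il7, Lbp and C3 above.

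Interferon-induced genes were lower or not called. Of 24 tested, 7 were lower and 0 higher, with a median of -1.14. Cd274, which encodes PD-L1, was at 22.2 and 48.1 CPM against 90.4 and 210 (-2.17 ± 0.44, adjusted p = 0.0021). Gbp2, an interferon gamma-induced GTPase gene, was at 141 and 725 CPM against 832 and 2343 (-1.90 ± 0.54, adjusted p = 0.048). Isg15, Gbp4, Rsad2, Oasl2 and Ido1 were the other lower genes. This count moved with the settings, to 2 without the replicate block, 4 without the Vwf-bearing cell and 15 with no filter on low counts. Of 18 antigen presentation genes, 2 (H2-Q7 and B2m) were lower and 0 higher, and H2-K1 was at 2591 and 2536 CPM against 2504 and 3100. Neither H2-Q7 nor B2m passed with DESeq2, with its size factors or without the replicate block. The lower genes were 29.2% of the interferon list and 11.1% of the antigen presentation list, beside 9.67% of all genes.

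Acute-phase genes included the clearest lymphatic differences in this group. Lbp, which encodes lipopolysaccharide-binding protein, was at 1547 and 1273 CPM against 22.6 and 20.6 (5.84 ± 0.55, adjusted p = 4.5e-05), in 63 of 72 cells. It was also higher than in the stromal gate, which held 170 and 164 CPM (2.92 ± 0.38, adjusted p = 3.0e-04), and at 18.5 CPM or less in the other 5 classes. C3, the central complement gene, was at 570 and 446 CPM against 13.6 and 21.9 (4.66 ± 0.67, adjusted p = 0.0011), but the stromal gate held 3777 and 3860. Il6st, the shared receptor chain of the IL-6 family, was higher (1.32 ± 0.20). Lcn2, an iron-withholding acute-phase gene, was at 7128 and 5958 CPM against 5880 and 3300 and was not called. Neutrophils held Lcn2 at 11765 and 10737 CPM and T cells at 30.4 and 67.1. Sod2, Nfkbia, Tnfaip3, Tnfrsf1b and Il4ra were lower, so of 26 tested genes of the group 3 were higher and 5 lower.

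Of 26 matrix and basement membrane genes tested, 10 were lower, 5 higher and 11 not called. Col4a1, a main basement membrane collagen gene, was at 814 and 853 CPM against 3458 and 3563 (-2.20 ± 0.40, adjusted p = 0.0041). Hspg2, the perlecan gene, was at 192 and 128 CPM against 651 and 656 (-2.21 ± 0.23). Col15a1 had 2 lymphatic UMIs against 393 and 326 CPM (-6.42 ± 0.53). Timp2, a metalloproteinase inhibitor gene, was higher at 1066 and 590 CPM against 27.1 and 24.7 (4.83 ± 0.28, adjusted p = 8.6e-12), and Emilin1, an elastic fibre gene tied to lymphatic anchoring, at 215 and 250 CPM against 27.1 and 37.0 (2.70 ± 0.29). Timp3 was found in all 72 lymphatic cells at 4574 and 4630 CPM, and was not called against 2364 and 3508. Bgn, Fbln2 and Mmrn2 made up the 5.

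Of 24 tested vascular growth genes, 6 were higher and 9 lower. The higher genes were the receptor genes Flt4, Nrp2, Tie1 and Ephb4 and the ligand genes Efnb2 and Hgf. The lower genes were the ligand genes Vegfa, Pgf, Angpt2, Apln, Pdgfa and Pdgfb with Nrp1, Ptprb and Ramp3, which act on the receptor side. Pdgfb, which recruits mural cells, was at 0 and 41.7 CPM against 547 and 548 (-4.33 ± 0.54, adjusted p = 1.6e-04), and Pgf at 44.4 and 80.2 against 172 and 519. Nrp1 had 3 lymphatic UMIs against 506 and 184 CPM, opposite to Nrp2. The VEGFR-3 ligand gene Vegfc had 1 lymphatic UMI, and Vegfd, its relative, had 0 but stood at 133 and 105 CPM in the stromal gate.

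Of 25 crypt niche genes, 10 had enough UMIs to be tested, and 4 were higher and 1 lower. Rspo3, which amplifies Wnt signals at stem cells, was at 37.0 and 48.1 CPM, 20 UMIs in 12 cells, with 0 UMIs in blood vessel endothelium. The level of Rspo3 was thus at least 14.2-fold higher (adjusted p = 5.4e-04 by edgeR). Every UMI that took Rspo3 and Reln past the filter for this test was lymphatic. The stromal gate held 70.2 and 30.1 CPM, so lymphatic and stromal levels overlapped (-0.05 ± 0.50, adjusted p = 0.96). In the other 5 classes Rspo3 was at 0.626 CPM or less. Reln, Ntn1 and Hgf were the other higher genes. Wnt2 had 7 lymphatic UMIs and 0 in blood vessel endothelium, below the filter. Hbegf, an EGF family ligand gene, was lower at 0 and 12.8 CPM against 145 and 526.

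Lipid genes showed 3 higher and 5 lower of 22 tested. Lpl, the lipoprotein lipase gene, was at 215 and 115 CPM with 0 blood vessel UMIs, at least 46.1-fold higher, in 19 cells, and Cavin2, a caveola gene, at 1281 and 1077 against 321 and 171 (2.25 ± 0.21). Fabp4, a fatty acid carrier gene of capillaries, was at 429 and 991 CPM against 4050 and 4350 (-2.75 ± 0.34), and 1 lymphatic cell held 143 of its 367 UMIs. Cd36, a fatty acid uptake gene, came from 4 cells and was lower. Pparg was higher, and Slco2a1, Scarb1 and Plpp3 lower.

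Of 9 tested proliferation genes, 0 were called by edgeR (1 at an unadjusted p under 0.05) and 0 by DESeq2 (0 unadjusted), and Mki67 and Top2a were each in 3 of 72 cells. Of 19 genes that respond to stress and tissue dissociation, 4 (Fos, Fosb, Egr1 and Zfp36) were higher and 5 lower. Fosb was at 762 and 468 CPM against 158 and 164. Their part in the other results was not tested.

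Compared with the collagen-rich stromal gate, 12734 genes were tested and 19.6% were called, of which 1180 (9.27%) were higher in lymphatic cells and 1314 (10.3%) lower. Of the lymphatic identity list, 16 of 19 were higher and 0 lower, and of the shared endothelial list 20 of 21 were higher. The 6 highest by the naming rule all had 0 stromal UMIs. They were Reln, Cldn5, Cyyr1, Adgrg3, Selp and Tbx1, with bounds from at least 184-fold (Tbx1) to at least 1368-fold (Reln). Cyyr1 was at 422 and 442 CPM and was lower than in blood vessel endothelium, at 746 and 660. Adgrg3, an adhesion receptor gene, was at 400 and 439 CPM against 0 and 6.85 there (6.18 ± 0.56), so it set lymphatic cells apart from both partners.

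The lowest against stroma were Nrg1, Sfrp1, Col6a1, Col6a3, Grem1 and Rgs5, all at 0 lymphatic UMIs. Nrg1, an EGF family niche ligand gene, was at 1352 and 1124 CPM in the stromal gate, so it was at least 176-fold lower in lymphatic cells. Of 22 niche genes, 13 were lower than in stroma and 2, Reln and Ntn1, higher. The BMP antagonist gene Grem1 and the Wnt modulator gene Sfrp1 were at least 101-fold and at least 155-fold lower. Ccbe1, needed to activate VEGF-C, had 0 lymphatic UMIs and 39.97 and 45.3 CPM in the stromal gate. Of 26 acute-phase genes, 2 (Il6st and Lbp) were higher and 7 lower, among them Saa3 at 126 and 382 CPM against 3855 and 19237.

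The 72 cells were not uniform, and the spread of Ccl21a marked it. Ccl21a was at 0 UMIs in 12 cells, 1 to 3 in 5, 4 to 7 in 4 and 8 or more in 51. The 17 cells under 4 UMIs (4 in library 1 and 13 in library 2) were compared with the other 55 by their summed UMIs, as a description with no test, since cells of 1 library are not replicates. By median depth, the cells with little Ccl21a were not the shallower ones. In library 1 the median was 12397 UMIs in the 4 cells and 4220 in the other 19, and in library 2 it was 5712 and 4745. Depth was uneven within the 17, since some held only 1135 to 1666 UMIs and 1 held 29925. In library 1 a cell held 20419 of the 46473 UMIs of this group. In library 2 the deepest cells held 29925, 23956, 19849 and 18654 of 126646, and that of 19849 was the Vwf-bearing cell. The summed levels below thus weigh these few cells most. The cut of 4 is in raw UMIs, so a shallow cell can fall under it for lack of depth. Scrublet marked 3 of the 17 and 2 of the 55. Plvap and Flt1 together reached 2 UMIs, a condition of the blood vessel gate, more often in the 17 cells. In library 1 this held for 3 of the 4 and 7 of the other 19, and in library 2 for 7 of the 13 and 9 of the other 36. These are raw UMIs at unequal depth, and their part in the differences below was not tested.

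Most genes of the lymphatic identity list were lower in the summed UMIs of the 17 cells. The counting intervals below take each UMI as independent and leave out differences between cells, so their counts are no test. Of 18 genes compared, 12 had a counting interval of the ratio (the 17 over the 55) wholly below 1, 0 wholly above and 6 holding 1, with a median ratio of 0.472. Lyve1 was at 393 CPM in the 17 cells and 4941 in the 55, a ratio of 0.0795 (counting interval 0.0614 to 0.101), with the same order in library 1 (409 and 4130) and library 2 (387 and 5329). Reln was at 410 against 1888 CPM, Pdpn at 110 against 493 and Ackr2 at 52.0 against 310. Mrc1 was in 1 of 17 cells and 32 of 55, and Piezo2, a mechanosensitive channel gene, in 1 and 21. Tbx1 (196 against 164 CPM), Fxyd6 (295 against 248), Nts (254 against 172), Thy1 (168 against 175) and Dtx1 (139 against 146) were among the 6 with intervals that hold 1. Of the rule's own genes, which had to be present in these cells, Mmrn1 was at 1947 against 5295 CPM and Prox1 at 664 against 847. The endothelial gene Cldn5 was at 1011 against 855 CPM.

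Valve and collecting vessel genes were mixed. Of 12 compared, 4 (Foxc2, Gata2, Klf2 and Klf4) had an interval wholly above 1, 1 (Eln, elastin) wholly below and 7 holding 1, with a median ratio of 1.09. Foxc2 was at 168 CPM in the 17 cells and 47.5 in the 55, a ratio of 3.53 (1.78 to 7.39), with 151 against 56.4 in library 1 and 174 against 43.2 in library 2. Of the Foxc2 UMIs in the 17 cells, 12 came from 1 library 2 cell, and the interval covers counting error only. Gata2 was at 144 against 47.5 CPM, with 237 against 11.3 in library 1 and 111 against 64.8 in library 2. Eln was at 98.2 against 212 CPM, a ratio of 0.464 (0.253 to 0.807). Itga9 was at 237 against 237 CPM and Nfatc1 at 86.6 against 94.9. Emcn was at 653 against 292 CPM and Dcn at 520 against 47.5. Fabp4 was at 1404 against 453 CPM, but 1 cell held 143 of its 243 UMIs in the 17 cells. The immediate-early genes Egr1 (1473 against 489 CPM) and Atf3 (462 against 47.5) also rested on few cells, since 1 cell held 86 of 255 and 30 of 80 UMIs. The 17 include the Vwf-bearing cell. With only the 55 cells, 543 genes were higher and 937 lower than in blood vessel endothelium, and Zfp36 moved from higher to -0.18.

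**Figure D4:**
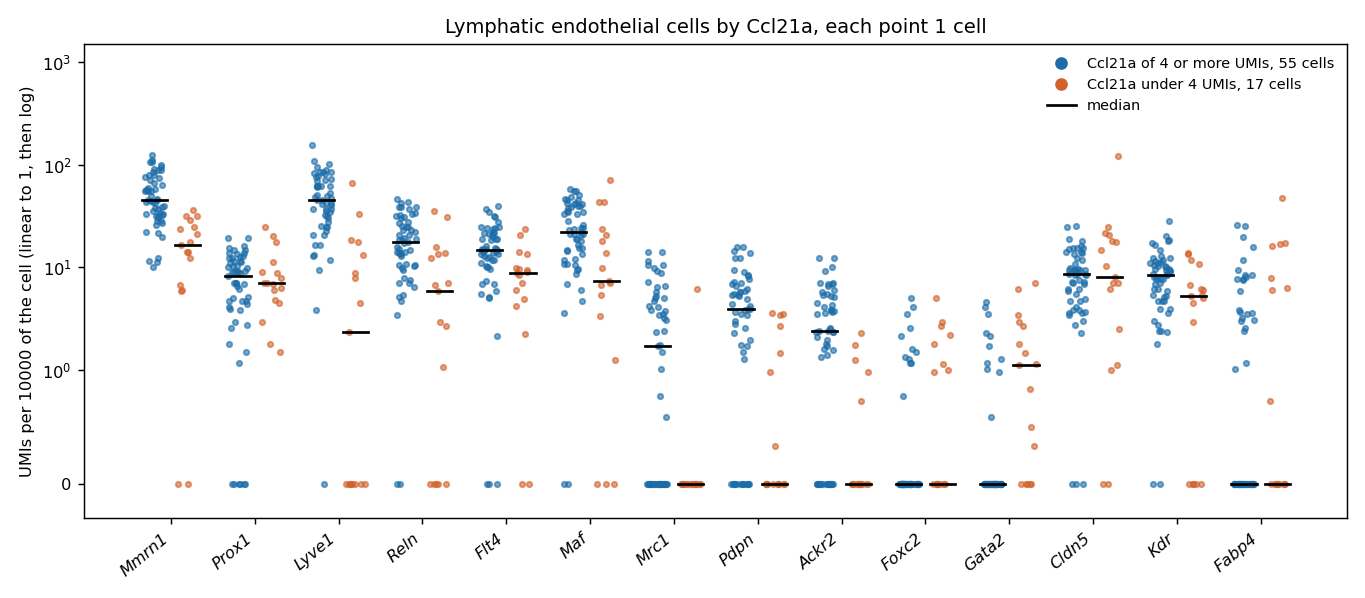
UMIs per 10000 of the cell (y axis, linear to 1 and logarithmic above) for 14 genes in lymphatic cells with at least 4 Ccl21a UMIs (blue, 55 cells) and under 4 (orange, 17 cells), with black lines at the medians. Lyve1, Reln, Mrc1, Pdpn and Ackr2 sat lower in the 17 cells, and Gata2 was detected in 12 of the 17 against 11 of the 55. These detection counts were not thinned to equal depth, and the median depth of the 17 was higher in both libraries.

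Between the libraries, 2965 genes had at least 20 lymphatic UMIs in 1 or both of them. Of these, 4 were at least 3 times as high in library 1 and 104 at least 3 times as high in library 2. Library 1 held 135101 lymphatic UMIs and library 2 311862, so 20 UMIs is a lower CPM in library 2. The cut thus eases entry for genes high in library 2, and the 4 and 104 cannot be compared directly. With 1 sample each there is no test. Cxcl9 had 0 and 92 UMIs, in 14 cells of which 1 held 34, and Gbp5 4 and 129 UMIs (29.6 and 414 CPM), a ratio of 14.0 (5.33 to 52.1) in 28 cells. Gbp2 was 5.15 times as high in library 2 (3.22 to 8.72). Some leukocyte genes were also higher in library 2, with Lyz2 at 3 and 35 UMIs, Fcer1g at 3 and 36, Cd52 at 4 and 34 and Mpeg1 at 0 and 21, and their part in these differences was not tested. Blood vessel endothelium had the same order, with Cxcl9 at 1356 and 3615 CPM and Gbp2 at 832 and 2343. In library 1, Spp1, the osteopontin gene, stood at 822 against 83.4 CPM, from 7 cells of which 1 held 54 UMIs, and Cd36, Ceacam1 and Tspan18 were the others. Several of the library 2 genes came from the Vwf-bearing cell, namely Vwf, Ackr1, Sele, Mgp and Ptgs2. Lyve1, Flt4, Reln, Prox1 and Mmrn1 differed by under 1.5 times between the libraries.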

How the data were processed

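UMI counts were measured in 2 libraries. The deposited matrices hold whole-number UMI counts per gene and barcode, made by the authors with Cell Ranger (7.0.0 per the file headers, 8.0.0 per the submitters' processing notes, which also name mm10). The labels' protocols name a 3' V3 kit for capture and 3' v2 reagents for the libraries. The counting annotation is not stated in the files or labels. Of 55357 gene IDs, 52081 were found in GENCODE M21, on GRCm38.

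Raw counts were summed per library over 8 gated classes (16 sums; no cell fell in 2 classes) and fitted in edgeR 4.0.16 (R 4.3.3) by the quasi-likelihood test with TMM, class and the library as block, since classes of a library share 1 tissue sample, on 12889 genes with 7 residual degrees of freedom. Genes needed at least 10 UMIs over the 4 sums compared. The spread was estimated over all 8 classes, and in each library the lymphatic sum held the fewest UMIs. The p-values of the lymphatic sums thus rest in part on the spread of other, larger classes. Adjusted p is Benjamini-Hochberg over all genes tested, with 0.05 as the threshold. SE is the one implied by the log2 value and its F statistic. Gate genes of the 2 classes compared and Ccl21 copies were not tested in that comparison. Doublets were kept in the main fit and left out (Scrublet in scanpy 1.11.5) as an alternative. Code was tested on simulated data. Named genes were the 12 largest differences in each direction against blood vessel endothelium (6 against stroma) with at least 20 UMIs in the higher class and 1 direction in both libraries, up to 5 called genes of each list and its 3 most abundant uncalled ones, and between libraries genes at least 3 times apart; others were named after their values were seen, and 1 gene that the rule names is not reported here. The cells and lists were chosen with earlier results of these data known. Alternatives were DESeq2 1.42.0, its size factors, other filters, gates and classes, no block, and single libraries.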

Additional observations from a re-analysis of the deposited data

How the results depend on the processing

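The numbers of genes higher and lower in lymphatic cells stayed within 1.5 times of those reported under every alternative for which calls were counted, which leaves out the fits of a single library. Against blood vessel endothelium DESeq2 gave 764 higher and 659 lower, DESeq2 size factors in edgeR 825 and 781, and no replicate block 646 and 868, so the share of higher genes moved from 42.5% to 53.7% with DESeq2. The median log2 difference over all genes was -0.13, and -0.01 with DESeq2 size factors. Against stroma, no replicate block gave 1131 higher and 1236 lower. Of 143 named genes called against blood vessel endothelium, 21 lost the call without the replicate block and 21 with DESeq2. Reversed values were few. With only cells of 4 or more Ccl21a UMIs, a choice made after seeing the data, Zfp36 was -0.18 against blood vessels, and against stroma Ackr1 was -9.52, Atf3 -0.68, Zfp36 -0.13, Junb -0.42 and Icam1 -0.17; Ackr1 was -9.54 without the Vwf-bearing cell. When 1 library was left out, Ackr1 against stroma ran from -5.43 to 2.60 and Esam from -0.16 to 2.14, the lower value being that without library 2. The cause was not tested, except that all lymphatic Ackr1 UMIs lay in that cell. The share of lymphatic cells, a mean of 0.469%, was 0.402% to 0.537% when 1 library was left out. With 72 cells, genes at a few UMIs were below what this depth can compare.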
